A study of Mus musculus with 2 samples.

Results

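Dendritic cells are rare in perivascular fat, and 63 of the 19480 nuclei kept from this mouse single-nucleus RNA-seq study met a marker rule for them. The rule asked for at least 3 unique molecular identifiers (UMIs, each standing for 1 captured RNA molecule) from Flt3, Clec9a, Itgax and Zbtb46 together. These UMIs had to come from 2 or more of the 4 genes and to make up at least 5 per 10000 UMIs of the nucleus. The rule allowed at most 2 UMIs of the macrophage genes F13a1, Mrc1 and Cd163 and at most 1 UMI of Pax5, Bank1, Themis and Flt1, which mark B cells, T cells and endothelium. The study profiled mesenteric perivascular adipose tissue, the fat around the mesenteric vessels, of mice aged 11 weeks. One library is labelled Prdm16 cKO, with the genotype Prdm16flox, AdopiQCre+. The other is the flox control, with the genotype Prdm16flox. Both groups therefore carry the floxed Prdm16 allele, and the series title states that the deletion is meant for adipocytes, so dendritic cells are not the cells targeted. That title speaks of thoracic and abdominal depots, while both samples are labelled as mesenteric. The libraries were made from nuclei of snap-frozen fat with a 10x 3' kit. The number of animals behind each library is not given in the labels, and with 1 library per genotype no difference between genotypes has a replicate check, so no p-value is given. Intervals are 95% intervals that cover counting error only.

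Classical dendritic cells take up antigen in tissues, carry it to lymph nodes and present it to T cells on MHC molecules. They grow under FLT3 ligand and fall into a cDC1 branch, which needs IRF8 and BATF3 and passes antigen of dead cells to CD8 T cells by cross-presentation, and a cDC2 branch, which presents mainly on MHC class II. A mature, migratory state is known by CCR7 and fascin, and plasmacytoid dendritic cells, a separate lineage that makes type I interferon, carry Siglec-H and TCF4.

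The targeted gene did not follow the labels. In adipocyte nuclei, where the Cre is meant to act, Prdm16 (chromosome 4, 154316125 to 154636873 of GRCm38, minus strand) had 833 UMIs, or 24.5 counts per 1e6 UMIs (CPM; 22.8 to 26.2), in the library labelled Prdm16 cKO, against 847 UMIs, or 16.4 CPM (15.3 to 17.5), in the flox control. The 3' UMIs need not come from the floxed part of the gene, which the labels do not give, so the genotype labels are unchecked and every direction between libraries below rests on them. In the dendritic cell nuclei themselves Prdm16 had 1 UMI in each library. The 25 members in the cKO-labelled library held 121957 UMIs with a median of 4454 per nucleus, and the 38 members in the control held 242055 UMIs with a median of 4743.5. A gene with 0 UMIs could therefore still be present at up to 24.6 CPM in the cKO-labelled members and 12.4 CPM in the control members. The libraries shared 28 cell barcodes, of which 1 was a cKO-labelled member.

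Dendritic cell nuclei made up 0.318% of the kept nuclei in the cKO-labelled library (25 of 7869; exact Clopper-Pearson interval 0.206 to 0.469%) and 0.327% in the control (38 of 11611; 0.232 to 0.449%). The interval of each share held the other share. The order of these shares depends on the rule: they were 0.114 and 0.172% with 5 rule UMIs over 3 genes, 0.191 and 0.121% with no macrophage UMI allowed, and 0.158 and 0.297% with each nucleus thinned to 2000 UMIs. As a share of the dendritic, macrophage, B cell and T cell nuclei found by like rules they made up 2.82% (1.83 to 4.14%) in the cKO-labelled library and 2.42% (1.72 to 3.30%) in the control.

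The 4 genes of the rule chose the nuclei, so their levels are a description. Flt3, the receptor for FLT3 ligand, had 44 UMIs in 16 cKO-labelled nuclei, against 75 UMIs in 29 control nuclei. Clec9a, a lectin receptor for actin exposed on dead cells, had 63 UMIs in 19 cKO-labelled nuclei, against 141 UMIs in 27 control nuclei. Zbtb46, a transcription factor of classical dendritic cells that endothelium also uses, had 80 UMIs in 23 cKO-labelled nuclei, against 112 UMIs in 34 control nuclei. A UMI of Zbtb46 was also found in 31.7% and 33.5% of adipocyte nuclei and in 16.0% and 21.5% of macrophage nuclei. Itgax, which encodes the integrin CD11c, was the sparsest, with 8 UMIs in 5 cKO-labelled nuclei, against 23 UMIs in 14 control nuclei. Members carried 3 to 26 UMIs of the 4 genes, with a median of 6 in the cKO-labelled library and 7 in the control. All 4 genes were found together in 3 cKO-labelled and 6 control nuclei.

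The members at the edge of the rule were mixed. In the 6 cKO-labelled members with exactly 3 rule UMIs the cDC1 list stood at 3895 CPM, and in the 5 such control members at 736 CPM. Just outside, 6 cKO-labelled and 9 control nuclei had 2 rule UMIs over 2 genes, and their cDC1 lists stood at 214 and 863 CPM. Nuclei with 3 or more UMIs of a single rule gene, 29 in the cKO-labelled library and 61 in the control, had Zbtb46 in nearly every case, with 109 and 260 UMIs of it and 0 and 3 UMIs of Flt3. Wdfy4 was at 0 and 21.4 CPM in these nuclei. The limit on B, T and endothelial genes left out 8 cKO-labelled and 11 control nuclei with cDC1 lists at 5822 and 4514 CPM, against 5674 and 5829 CPM in the members. The limit on macrophage genes left out a further 10 and 27 nuclei, with cDC1 lists at 1525 and 3571 CPM.

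Genes of the cDC1 program were found in most members. The rule chose partly on Clec9a, found in 46 of the 63 members, so the predominance of cDC1 genes may follow from the rule. The levels here and the cDC1 list sums below are therefore a description. Wdfy4 (chromosome 14, 32959547 to 33185508), which cDC1 cells need to cross-present antigen of dead cells, stood at 3099 CPM in the cKO-labelled members (378 UMIs) and 2512 CPM in the control members (608 UMIs). Macrophage nuclei had 113 CPM of Wdfy4 in the cKO-labelled library and 126 CPM in the control, and T cell nuclei 22 and 19.1 CPM. It was detected in 23 of 25 cKO-labelled members (92.0%) and 34 of 38 control members (89.5%), against 30.0% and 36.2% of macrophage nuclei, at median depths of 3561 and 3898 UMIs, and 12% and 9.30% of T cell nuclei, at 3904.5 and 4209 UMIs. B cell nuclei, which also use this gene, had 518 and 675 CPM and a UMI of it in 70.1% and 80.0% of nuclei. Irf8 (chromosome 8, 120736358 to 120756694), the transcription factor that sets the cDC1 fate, stood at 623 CPM in the cKO-labelled members and 599 CPM in the control members, against 31.7 and 36.5 CPM in macrophage nuclei. Naaa, a lysosomal enzyme that breaks down N-acylethanolamines, stood at 459 and 438 CPM, and Tlr3, the endosomal sensor of double-stranded RNA, at 180 and 132 CPM.

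Sparser cDC1 genes were found among the members in few copies. Xcr1, the receptor for the chemokine XCL1 that defines cDC1 cells, had 4 UMIs in 3 cKO-labelled nuclei and 7 UMIs in 6 control nuclei, and Batf3, the partner of IRF8, 7 UMIs in 6 nuclei and 9 UMIs in 8 nuclei. Batf3 was also found in 9.16% and 9.54% of macrophage nuclei. Among the members, 3 of the nuclei with Batf3 lay in the mature-like cluster described below, where Wdfy4 had 1 UMI in 1 nucleus. Tlr11, a sensor of microbial profilin in mice, had 6 and 15 UMIs in the members, against 0 and 1.67 CPM in macrophage nuclei. The 14 genes of the cDC1 list summed to 5674 CPM (5259 to 6113) in the cKO-labelled members and 5829 CPM (5529 to 6142) in the control members. The same list summed to 400 and 457 CPM in macrophage nuclei, 728 and 886 CPM in B cell nuclei and 156 and 194 CPM in T cell nuclei. With each nucleus thinned to 1000 UMIs, 19 of 25 cKO-labelled members (76.0%) and 26 of 38 control members (68.4%) still had 3 or more UMIs of the list, against 1.31% and 1.91% of macrophage nuclei and 6.56% and 8.38% of B cell nuclei. Unthinned, the counts were 22 cKO-labelled and 32 control members. The exceptions were spread over both libraries: Wdfy4 was at 0 UMIs in 2 cKO-labelled and 4 control members, the pan-leukocyte gene Ptprc in 4 and 3, and both genes together in 1 and 1.

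**Figure D1:**
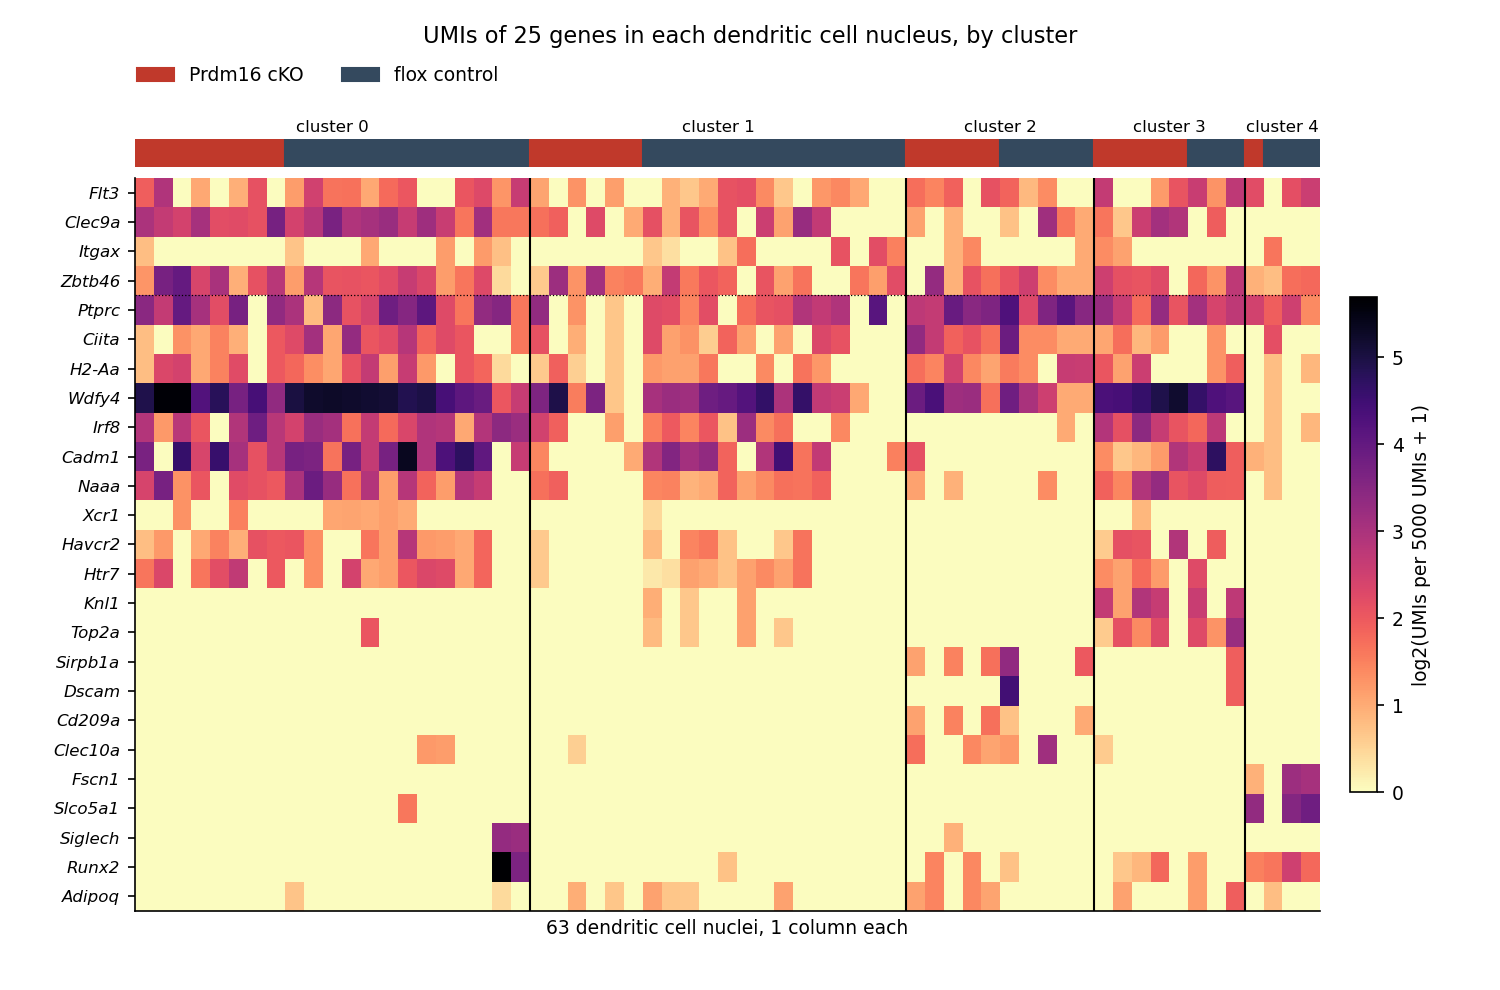
Each column is 1 of the 63 dendritic cell nuclei, ordered by cluster with cKO-labelled nuclei left of control nuclei inside each cluster; each row is a gene, and the colour gives log2(UMIs per 5000 UMIs + 1). Wdfy4 fills most columns outside cluster 4, which holds the nuclei with Fscn1, while Knl1 and Top2a fill most columns of cluster 3 and Cd209a is seen in cluster 2, and Siglech is seen in few columns.

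Outside the rule genes, the 25 genes that stood highest over all other nuclei in both libraries were led by Gm36723, Wdfy4 and Irf8. The members and these genes come from the same matrices, so this order is a description. Gm36723, annotated as a long intergenic RNA on chromosome 12 (25303940 to 25471979), stood at 968 CPM in the cKO-labelled members, against 9.24 CPM in the other nuclei of that library, and at 1000 CPM in the control members, against 16.3 CPM in the other control nuclei. The log2 ratios were 6.71 (6.42 to 6.996) and 5.94 (5.74 to 6.13). The list went on with Tbc1d9 (log2 ratios 4.93 and 4.72) and Tbc1d8 (4.55 and 4.77), which carry Rab GTPase-activating domains, and Cbfa2t3 (4.62 and 4.46), a transcriptional corepressor of blood cells. Cadm1, an adhesion molecule used to mark cDC1 cells across species, had ratios of 3.99 and 4.77, and Zfp366, a zinc finger factor known as DC-SCRIPT, 5.30 and 3.93. Rab43, a small GTPase of cross-presentation in cDC1 cells, had 3.86 and 3.45, and the last of the 25, the lipid phosphatase gene Inpp5d, 3.17 and 3.03.

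Lysosomal and membrane lipid genes were also among the 25: Ppt1, a lysosomal thioesterase (4.11 and 3.56), Plbd1 (3.23 and 3.06), the phospholipid flippase gene Atp8b4 (4.34 and 3.95) and the ganglioside enzyme St3gal5 (3.93 and 3.10). Htr7, a serotonin receptor, was outside the rule for naming and was picked after its values were seen. It had 27 UMIs in 11 cKO-labelled nuclei and 37 UMIs in 19 control nuclei, 44.0% and 50% of the members, against 0.704% and 0.351% of T cell nuclei, and 1.19 and 1.34 CPM in macrophage nuclei. Ndnf had 4 UMIs (32.8 CPM) in the cKO-labelled and 6 UMIs (24.8 CPM) in the control members, against 21.5 and 28.1 CPM in macrophage nuclei, and stood at 120 and 98.2 CPM in the members with exactly 3 rule UMIs. Fcrls had 1 and 0 UMIs.

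MHC class II genes were higher in dendritic cell nuclei than in macrophage nuclei as a group. A gene counted here as higher or lower when it was 2 or more times so in both libraries, among genes with a mean of at least 50 CPM; of 4057 such genes 5.55% were higher than in macrophage nuclei and 3.67% lower, and the median log2 ratio of all of them was 0.0066 in the cKO-labelled library and -0.0034 in the control. Of 9 measured class II genes 7 were higher, 1 was lower and 1 was neither. H2-Aa, the alpha chain of I-A, stood at 344 CPM in the cKO-labelled members and 285 CPM in the control members, against 71.1 and 82.7 CPM in macrophage nuclei. Ciita, the master activator of class II genes, stood at 336 and 500 CPM, against 71.1 and 95.4 CPM. Cd74, the invariant chain that guides class II molecules, stood at 312 and 388 CPM, against 122 and 133 CPM. The lower gene was Lgmn, a lysosomal protease, with 24.6 and 20.7 CPM in the members and 99.7 and 142 CPM in macrophage nuclei.

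Set against B cell nuclei, where 6.05% of 4065 genes were higher in dendritic cell nuclei and 3.42% lower, 3 of 9 measured class II genes were higher (H2-Aa, H2-Eb1 and Ciita), and Cd74 and March1, the ubiquitin ligase that removes class II from the surface, were neither. Set against T cell nuclei, where 6.55% of 4122 genes were higher and 3.42% lower, all 8 measured class II genes were higher. Ciita was detected in 72.0% of cKO-labelled and 71.1% of control members, against 3.87% and 4.04% of T cell nuclei.

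Among genes of cross-presentation, 4 of 7 measured were higher than in macrophage nuclei and none lower: Wdfy4, Rab43, the endosomal GTPase gene Rab7b (221 and 153 CPM in the members, against 49.6 and 55.5 CPM) and Vav1. Of 7 measured costimulatory and checkpoint genes 3 were higher and none lower. Havcr2, which encodes TIM-3, stood at 172 and 165 CPM in the members, against 2.99 and 2.34 CPM in macrophage nuclei, and was detected in 12 cKO-labelled and 16 control nuclei. Slamf7 had 172 and 190 CPM in the members, and Btla had 41 UMIs in the cKO-labelled members and 70 in the control members. The classical costimulators were sparse: Cd80 had 5 and 6 UMIs and Cd40 2 and 13, while Cd86 had 17 and 51.

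Of 16 measured transcription factors of dendritic cell development 4 were higher than in macrophage nuclei (Irf8, Id2, Bcl11a and Cbfa2t3) and 1 was lower (Rbpj). Id2, an inhibitor of helix-loop-helix factors that cDC1 cells need, stood at 123 and 78.5 CPM in the members, against 14.3 and 8.70 CPM. Rbpj, the DNA-binding effector of Notch, stood at 1123 and 1326 CPM, against 3121 and 3756 CPM. Of 8 measured growth factor receptor genes Kit was higher (82.0 and 132 CPM in the members, against 20.3 and 13.4 CPM), and Csf1r, the receptor for macrophage growth factor, was lower (1 and 8 UMIs in the members, against 104 and 130 CPM in macrophage nuclei), as was Tgfbr2. Of 6 measured pattern receptors 3 were higher: Tlr3, the DNA sensor gene Aim2 (262 and 235 CPM in the members, against 76.4 and 78.6 CPM) and Nlrp1b (221 and 202 CPM, against 61.5 and 70.3 CPM).

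Cell adhesion and migration genes included 9 of 20 measured that were higher than in macrophage nuclei and 1 lower, Itga6. The 9 included both chains of the gut-homing integrin, Itga4 (377 and 504 CPM in the members, against 162 and 214 CPM) and Itgb7 (156 and 161 CPM, against 13.1 and 18.4 CPM), and the guanine exchange factor gene Dock10 (2181 and 2053 CPM, against 560 and 495 CPM). Ccr2, the CCL2 receptor known from monocytes, had 32 UMIs in 18 cKO-labelled nuclei and 39 UMIs in 19 control nuclei. Cytokine RNA was scarce at this depth: Il12a, Il12b, Il6, Il10, Ccl17 and Cd70 had 0 UMIs in both libraries, while Il15, a survival factor of T and NK cells, had 18 and 37 UMIs. None of the 15 measured lipid handling genes or of the 14 measured adipocyte genes differed by 2 or more times from macrophage nuclei in both libraries.

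Macrophage genes marked the other side of the contrast. The rule limited F13a1, Mrc1 and Cd163 in the members, and the macrophage nuclei were chosen on these genes, so this contrast is a description. Of 6 measured genes of the macrophage list 4 were lower in the members than in macrophage nuclei and none higher: Adgre1 (1 and 8 UMIs), Csf1r, Mertk (5 and 16 UMIs) and Maf (19 and 35 UMIs). The whole list, in which 10 of 17 genes in the cKO-labelled members and 12 of 17 in the control members had a UMI, summed to 385 and 459 CPM in the members, against 1499 and 1683 CPM in macrophage nuclei. Cd68 was at 0 UMIs in both libraries. The B cell list had 17 and 40 UMIs in the members, with Cd22 at 0 and 1, and the T cell list 25 and 60 UMIs, with Cd3e at 0 and 1; the rule limited genes of each of these lists, so their low levels are a description.

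RNA of adipocytes was present in the members as in all immune nuclei. The adipocyte list summed to 11274 CPM in the cKO-labelled members and 11031 CPM in the control members, which is 33.8% and 31.6% of its level in adipocyte nuclei, against 45.8% and 38.4% in macrophage nuclei. Adipoq had 0 UMIs in 18 of 25 cKO-labelled and 29 of 38 control members. The list took 0.355 to 3.16% of the UMIs of a cKO-labelled member and 0.328 to 2.60% of a control member. The pancreatic acinar and intestinal list differed more between the libraries, with 451 CPM (340 to 587) in the cKO-labelled members and 82.6 CPM (50.5 to 128) in the control members, against 721 and 270 CPM in macrophage nuclei.

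**Figure D2:**
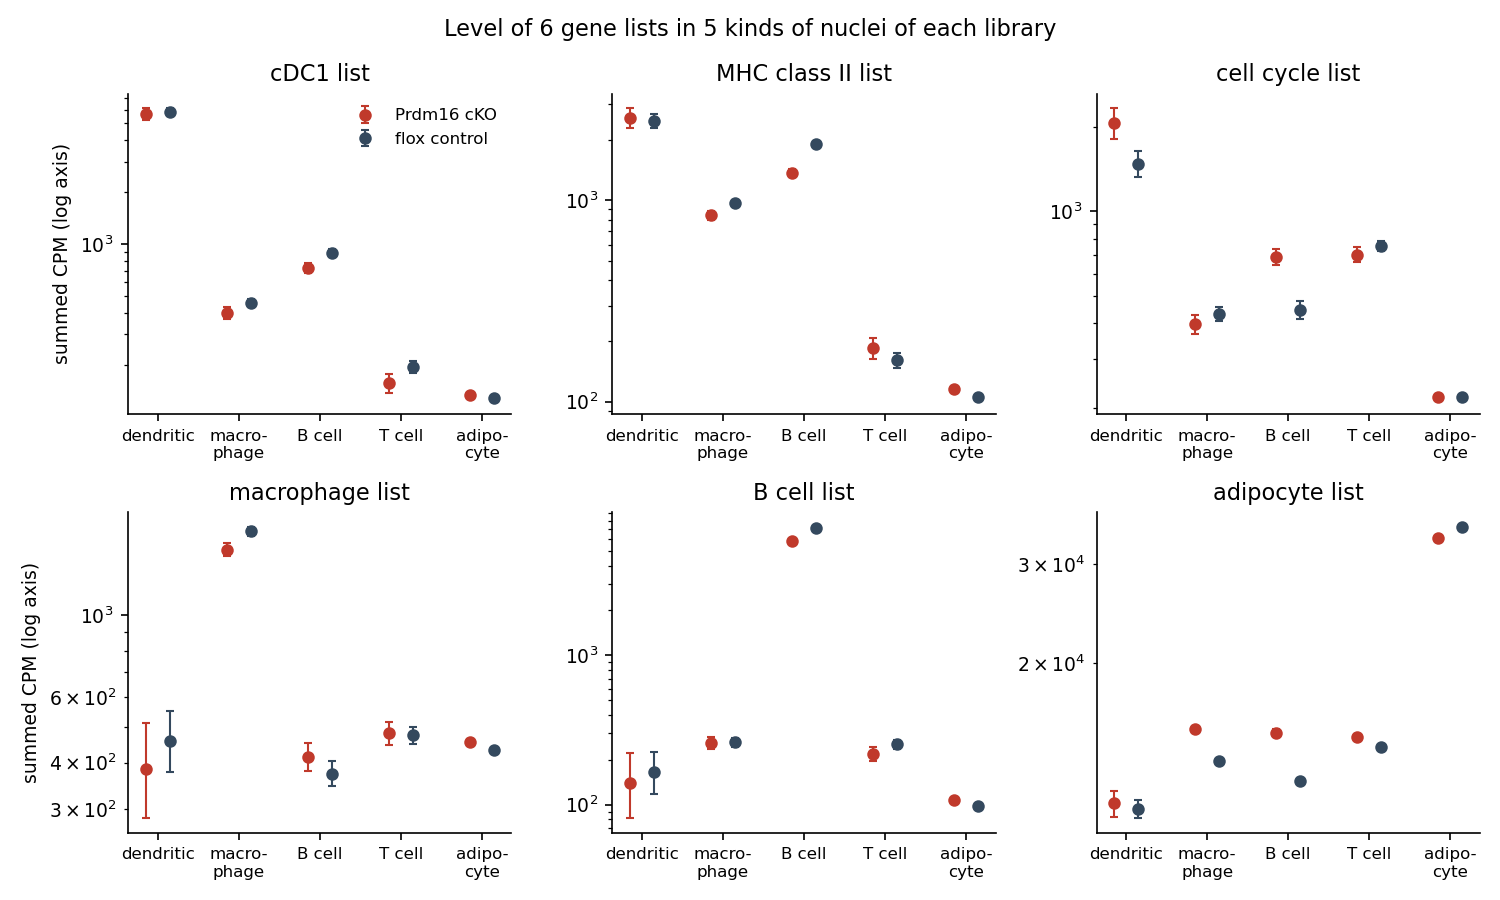
Summed CPM (log axis) of 6 marker lists in 5 kinds of nuclei, cKO-labelled beside control, with 95% Poisson intervals. The cDC1 list stands at 5674 and 5829 CPM in dendritic cell nuclei and at no more than 886 CPM in macrophage, B cell, T cell and adipocyte nuclei. The macrophage, B cell and adipocyte lists are highest in their own kind of nuclei. Adipocyte nuclei were chosen by the adipocyte list and B cell nuclei by genes of the B cell list, so the peaks of these lists follow from the choice.

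The cDC2 list stood at 1189 CPM (1003 to 1399) in the cKO-labelled members and 1087 CPM (959 to 1226) in the control members, against 742 and 893 CPM in macrophage nuclei, and none of its 5 measured genes was 2 or more times higher. The plasmacytoid list stood at 541 CPM (419 to 689) in the cKO-labelled members and 2198 CPM (2015 to 2393) in the control members, against 862 and 893 CPM in macrophage nuclei. The mature list stood at 344 CPM (248 to 466) in the cKO-labelled members and 826 CPM (716 to 949) in the control members, against 321 and 327 CPM in macrophage nuclei and 505 and 483 CPM in B cell nuclei. In the control members alone both of these lists lay above their level in macrophage, B cell, T cell and adipocyte nuclei. Clustering the 63 members on all genes other than the 4 of the rule gave 5 clusters, in which these lists were unevenly spread. A cluster was named only where 3 markers of a list were each found in 25% of its nuclei and stood 2 times above the other members. The list also had to have more genes than any other list among the 10 leading genes of the cluster by fold. The clusters were made from the same genes, so their leading genes are a description.

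The cluster of 10 nuclei, 5 in each library, was cDC2-like. Its cDC2 list stood at 2316 CPM in the cKO-labelled nuclei and 2449 CPM in the control nuclei, and its class II list at 4090 and 5381 CPM. The C-type lectin genes Cd209a (7 UMIs in 5 nuclei), Clec10a (11 UMIs in 5) and Mgl2 (12 UMIs in 6) were among its genes, with Sirpb1a (22 UMIs in 5) and Tnip3, an inhibitor of NF-kB signalling (15 UMIs in 5). Irf8 had 1 UMI over the 10 nuclei, while Wdfy4 was found in all 10. Its first gene by fold, Dscam, had all of its 32 UMIs in 1 nucleus.

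A cluster of 4 nuclei, 1 cKO-labelled and 3 control, was mature-dendritic-cell-like. No cluster took this name at resolution 0.5 or with nuclei thinned to 1000 UMIs, and with doublets removed it went to 21 nuclei led by Ccbe1, Tmcc3 and Eya4. The mature list stood at 2894 CPM in the cKO-labelled nucleus and 7105 CPM in the control nuclei, and the cDC1 list at 362 and 625 CPM. Fscn1, the actin-bundling protein fascin of migratory dendritic cells, had 17 UMIs in 3 nuclei, Ccr7 2 UMIs in 2, the NF-kB subunit gene Relb 17 UMIs, and Il4i1, an amino acid oxidase, 5 UMIs in all 4. Slco5a1 had 35 UMIs in 3 nuclei and Tmcc3 219 UMIs in 4. Clec9a was at 0 UMIs in these nuclei, 3 of which met the rule through Flt3 and Zbtb46 and 1 through Itgax and Zbtb46.

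The cluster of 8 nuclei, 5 cKO-labelled and 3 control, was led by genes of dividing cells. Its cell cycle list stood at 7373 CPM in the cKO-labelled nuclei and 7321 CPM in the control nuclei, and its cDC1 list at 8178 and 8721 CPM. Knl1, a kinetochore scaffold, had 30 UMIs in 6 nuclei, the mitotic motor genes Kif23, Kif11 and Kif15 had 27, 24 and 23 UMIs, and Top2a, which untangles DNA, 19 UMIs in 7. Among all members Top2a was found in 4 of 25 cKO-labelled and 8 of 38 control nuclei, 16.0% and 21.1%, against 9.24% and 1.79% of B cell nuclei, 2.04% and 2.23% of macrophage nuclei and 5.28% and 5.44% of T cell nuclei. Of 9 measured cell cycle genes 8 were 2 or more times higher in the members than in macrophage nuclei and none lower. Thinned to 1000 UMIs, 4 cKO-labelled members (16.0%) and 7 control members (18.4%) had 3 or more UMIs of the list, against 1.57% and 2.07% of macrophage nuclei.

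The other two clusters stayed unnamed. One, of 8 cKO-labelled and 13 control nuclei, had the highest cDC1 list of the 5, at 10717 and 10145 CPM. It also held 2 control nuclei with 26 and 8 UMIs of Siglech, which carried 184 of the 282 Tcf4 UMIs and 98 of the 138 Bcl11a UMIs of all control members, and 36 of their 145 Irf8 UMIs. No cKO-labelled member had 3 or more Siglech UMIs. The plasmacytoid list stood at 460 CPM in the cKO-labelled and 5809 CPM in the control nuclei of this cluster. The last cluster, of 6 cKO-labelled and 14 control nuclei, was led by Eya4, Ccbe1 and Pcdh9; its adipocyte list stood at 21210 and 15362 CPM, its mesothelial list at 1394 and 966 CPM, and its cDC1 list at 2007 and 4674 CPM. Its class II list was at 1003 and 1602 CPM, below the 3189 and 2918 CPM of the first. At resolution 1.5, in place of 1, 4 of the 63 members, 1 cKO-labelled and 3 control, formed a cluster that met the marker rule for mesothelial cells and was led by Eya4 and Ccbe1, and the 2 Siglech nuclei formed a cluster that met the rule for plasmacytoid dendritic cells.

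The counting intervals of every cluster share overlapped between libraries. The cDC2-like cluster held 20% of the cKO-labelled members (6.83 to 40.7%) and 13.2% of the control members (4.41 to 28.1%), the dividing one 20% (6.83 to 40.7%) and 7.89% (1.66 to 21.4%), and the mature-like one 4% (0.101 to 20.4%) and 7.89% (1.66 to 21.4%). The unnamed clusters held 32.0% (14.9 to 53.5%) and 34.2% (19.6 to 51.4%), and 24% (9.36 to 45.1%) and 36.8% (21.8 to 54.0%). Cell cycle RNA was not confined to the dividing cluster. In the unnamed cluster led by Eya4 the cell cycle list stood at 279 CPM in the cKO-labelled and 2106 CPM in the control nuclei. Single control nuclei there, with 26464 and 17213 UMIs in total, held 139 and 58 UMIs of the list. Over all members, 9 cKO-labelled (36.0%) and 18 control nuclei (47.4%) had 3 or more UMIs of it. Unthinned, this share was 20.4% and 24.6% in macrophage nuclei and 33.7% and 31.6% in B cell nuclei. It was 39.4% and 43.3% in T cell nuclei and 43.5% and 47.6% in the deeper adipocyte nuclei. The unthinned share therefore does not set the members apart.

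Between the libraries, 20 of the 25 genes that stood highest over other nuclei lay within 1.5 times, 4 were higher in the cKO-labelled members (Zfp366, Ap1s3, Ppt1 and St3gal5) and 1 was lower (Cadm1), with a median log2 ratio of 0.12. Of 1735 genes with 50 or more UMIs over all members, 8.07% were 1.5 or more times higher in the cKO-labelled members and 12.6% lower, and the median log2 ratio of all of them was 0.0062. With each nucleus thinned to 1000 UMIs the split was 453 higher and 416 lower of the same 1735 genes, against 140 and 218 on all UMIs. Wdfy4 had a log2 ratio of 0.30 (0.11 to 0.49), Irf8 of 0.06 (-0.36 to 0.47), Naaa of 0.07 (-0.43 to 0.55) and Cbfa2t3 of -0.09 (-0.49 to 0.30). Cadm1 was lower. It had 77 UMIs in 16 cKO-labelled nuclei (631 CPM) and 351 UMIs in 26 control nuclei (1450 CPM), with no nucleus above 17 and 39 UMIs, and a log2 ratio of -1.20 (-1.57 to -0.84). Without the nucleus richest in it in each library the ratio was -1.33. The unnamed cluster led by Eya4, with the high adipocyte and mesothelial lists, held 169 UMIs of Cadm1. Of these, 36 and 37 lay in the 2 control members that removal of doublets took out. No cKO-labelled nucleus of that cluster had more than 3. The cluster with the highest cDC1 list held 223 UMIs of Cadm1, and ratios within clusters were not computed.

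The 12 genes named as higher in the cKO-labelled members, by the distance of their counting interval from no difference, were Tkt, Fgf14, Me1, Acly, Acaca, Pparg, Ptpre, Zfp366, Slc9a9, Gng2, Sipa1l3 and Plin1. Tkt, a pentose phosphate enzyme that feeds NADPH production, had 60 UMIs in 20 cKO-labelled nuclei (492 CPM) and 29 UMIs in 24 control nuclei (120 CPM), a log2 ratio of 2.04 (1.38 to 2.73). Acly, which makes cytosolic acetyl-CoA, had 75 and 53 UMIs and a ratio of 1.49 (0.96 to 2.03), and Me1, the malic enzyme, 143 and 110 UMIs and 1.37 (1.00 to 1.74). Acaca, the acetyl-CoA carboxylase, had 525 and 501 UMIs and 1.06 (0.88 to 1.24), Pparg, the adipocyte master regulator, 199 and 183 UMIs and 1.11 (0.81 to 1.41), and Plin1, the lipid droplet coat of adipocytes, 44 and 35 UMIs and 1.32 (0.65 to 2.003). In macrophage nuclei of the same libraries the ratios were 0.87 for Tkt, 1.21 for Acly, 0.82 for Me1, 0.61 for Acaca, 0.50 for Pparg and 0.38 for Plin1. In the same order they were 1.32, 1.28, 1.06, 1.00, 0.46 and 0.29 in B cell nuclei. T cell nuclei had 1.14, 1.09, 1.02, 0.91, 0.44 and 0.27, and adipocyte nuclei 0.90, 1.00, 0.66, 0.44, 0.29 and 0.06. A single cKO-labelled nucleus held 30.0% of the Tkt, 37.8% of the Me1, 29.3% of the Acaca and 34.2% of the Pparg UMIs. Without the richest nucleus in each library the ratios were 1.63 for Tkt, 0.82 for Me1, 0.77 for Acaca and 0.90 for Pparg. The adipocyte list took 33.8% and 31.6% of its adipocyte level in the members, and the values move with the way this RNA is treated. With an adipocyte profile of each library subtracted, scaled by that list, Tkt kept 55.0% of its cKO-labelled and 7.20% of its control UMIs, for a ratio of 5.005, and Acly 31.8% and 10.4%, for 3.14. The same subtraction left 27.6% of the cKO-labelled UMIs of Me1, 22.9% of Acaca, 35.1% of Pparg and 25.4% of Plin1, and 0 UMIs of each of these 4 genes in the control members, so that they have no ratio.

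Zfp366, one of the genes that marked the members, had 64 UMIs in 14 cKO-labelled nuclei (525 CPM) and 52 UMIs in 15 control nuclei (215 CPM), a ratio of 1.29 (0.74 to 1.85), and 1.42 without the richest nucleus in each library. In macrophage nuclei its ratio was -0.06. Ptpre, a receptor-type tyrosine phosphatase, had 33 and 22 UMIs and 1.57 (0.75 to 2.42), Gng2, a G protein subunit, 56 and 46 UMIs and 1.27 (0.68 to 1.87), and Slc9a9, an endosomal sodium-proton exchanger, 179 and 178 UMIs and 1.00 (0.69 to 1.30); their ratios in macrophage nuclei were -0.03, -0.35 and -0.14. Fgf14 had 157 and 99 UMIs and 1.65 (1.28 to 2.03), with 46.5% of its cKO-labelled UMIs in 1 nucleus, and a ratio of -1.31 among the 9 cKO-labelled and 20 control nuclei with 5 rule UMIs over 3 genes. Its ratios were 0.63 in macrophage, 0.85 in B cell and 0.76 in T cell nuclei, and the adipocyte subtraction left 54.3% of its cKO-labelled UMIs and 0 UMIs in the control members. Sipa1l3 had 44 and 35 UMIs and 1.32 (0.65 to 2.003), but -0.72 with each nucleus thinned to 1000 UMIs.

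The 12 genes named as lower were Grm8, Mctp2, Runx2, Sntg1, Cdh11, Pcnx, Setbp1, Rbfox1, Tex2, Ptprg, Clnk and Ccbe1, and for several the control value came from 1 or 2 nuclei. Grm8, a glutamate receptor gene, had 1 UMI in the cKO-labelled members and 116 UMIs in 5 control nuclei (log2 ratio -5.87, -11.18 to -3.36), of which 72.4% lay in 1 nucleus. Runx2, a transcription factor of plasmacytoid dendritic cells and bone, had 8 UMIs in 6 cKO-labelled nuclei and 172 UMIs in 8 control nuclei, a ratio of -3.44 (-4.67 to -2.43), and 148 of the 172 lay in the nucleus with 26 Siglech UMIs. Without both Siglech nuclei its ratio was 0.17, that of Grm8 -0.72 and that of Mctp2 -1.04, against -4.13 with all nuclei.

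Pcnx, Ptprg and Clnk were found in 17 to 26 control nuclei. Pcnx had 5 UMIs in 5 cKO-labelled nuclei (41.0 CPM) and 66 UMIs in 26 control nuclei (273 CPM), a ratio of -2.73 (-4.40 to -1.44). Ptprg, a receptor-type tyrosine phosphatase, had 10 UMIs in 10 cKO-labelled nuclei and 84 UMIs in 25 control nuclei, a ratio of -2.08 (-3.19 to -1.13). The adipocyte subtraction left 0 UMIs of Pcnx and Ptprg in the cKO-labelled members and 69.2% and 49.3% of their control UMIs, so that neither has a ratio. Clnk, an adaptor of immune receptor signalling that cDC1 cells express, had 7 UMIs in 3 cKO-labelled nuclei and 60 UMIs in 17 control nuclei, a ratio of -2.11 (-3.49 to -0.98). Setbp1, Tex2 and Rbfox1 had ratios of -2.40, -2.31 and -2.65, with 39.1% to 52.4% of their control UMIs in 1 nucleus. Sntg1 (-2.16), Cdh11 (-2.49) and Ccbe1 (-2.11), with 39.0%, 40.4% and 55.0% of their control UMIs in 1 nucleus, were among the leading genes of the unnamed cluster of 20 nuclei. That cluster had 183 UMIs of Sntg1, 84 of Cdh11 and 62 of Ccbe1, as well as 207 of Fgf14, a gene named as higher, and it held 24% of the cKO-labelled and 36.8% of the control members. Leaving out the richest nucleus in each library left all 12 higher and all 12 lower genes past 1.5 times in the same direction, with Grm8 then at 0 UMIs in the cKO-labelled members. Runx2 then had -1.05, with an interval of -2.63 to 0.28 that held no difference. Leaving out 1 nucleus cannot check a gene carried by 2 nuclei.

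**Figure D3:**
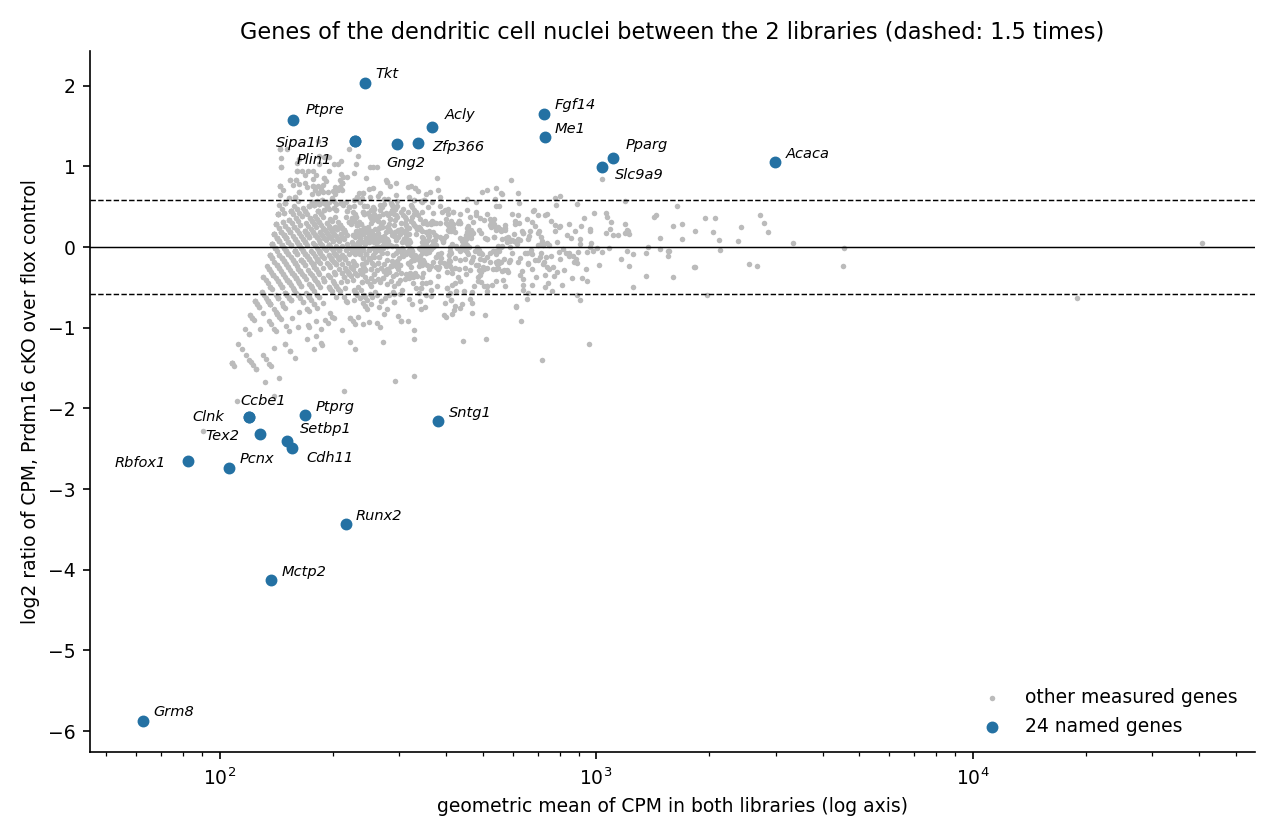
Log2 ratio of the cKO-labelled over the control members against the geometric mean CPM (log axis) for the 1735 measured genes; the 24 named genes are labelled, and the dashed lines mark 1.5 times. The cloud is centred near 0, with 8.07% of genes above the upper line and 12.6% below the lower one.

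Grouped by function, the lists differed in how their measured genes lay around no difference. Of 6 measured class II genes 4 lay above 0 and 2 below, none past 1.5 times, with a median log2 ratio of 0.15. Ciita had 41 UMIs in 18 cKO-labelled nuclei and 121 UMIs in 27 control nuclei, a ratio of -0.57 (-1.12 to -0.05). Of 21 MHC class I genes only 2 were measured, and both lay below 0, with a summed log2 ratio of -0.61 (-1.21 to -0.04). Nlrc5, the activator of class I genes, had 9 and 48 UMIs and -1.43 (-2.64 to -0.38), and H2-K1 -0.15 (-0.89 to 0.56). The whole class I list stood at 1197 CPM (1011 to 1408) in the cKO-labelled members and 1347 CPM (1205 to 1501) in the control members, with overlapping intervals. The 5 genes of cross-presentation had a median of 0.29, with 3 above 0 and 2 below, and the 4 pattern receptors of 0.14, with 3 above and 1 below. The 13 immune signalling genes had a median of 0.17, 13 adhesion genes -0.03 and 6 lipid handling genes -0.02, and the direction of these 3 medians depends on the settings. With 5 rule UMIs over 3 genes they were 0.52, 0.28 and -0.47, and with no macrophage UMI allowed -0.17, -0.20 and 0.40. The cross-presentation median was -0.062 with genes of 20 or more UMIs measured.

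Of 14 measured transcription factors, 4 lay above 0 and 10 below, 1 was 1.5 or more times higher (Ikzf1) and 3 were lower (Tcf4, Bcl11a and Zeb2), with a median of -0.17 and a summed log2 ratio of -0.33 (-0.44 to -0.22). The median was 0.037 with 5 rule UMIs over 3 genes. Tcf4 had 54 UMIs in 14 cKO-labelled nuclei and 282 UMIs in 28 control nuclei, a ratio of -1.40 (-1.84 to -0.97), and Bcl11a, a factor of the plasmacytoid and lymphoid lineages, 23 and 138 UMIs, a ratio of -1.60 (-2.30 to -0.95). Without the 2 Siglech nuclei these ratios were 0.01 for Tcf4 and 0.07 for Bcl11a. Zeb2, a factor of the cDC2 and plasmacytoid lineages, moved little, with -0.53 (-0.78 to -0.29) without them, against -0.60 (-0.84 to -0.36) with all nuclei. It stayed below no difference but fell inside the limit of 1.5 times. None of the 3 lower genes was thus past 1.5 times without the 2 Siglech nuclei. Ikzf1, the lymphoid factor Ikaros, had 0.67 (0.25 to 1.10) with all nuclei and 0.90 without them. Of 4 measured growth factor and cytokine receptor genes 1 was 1.5 or more times higher and 2 were lower, with a median of -0.36. Ifngr1, a chain of the interferon gamma receptor, had 35 and 34 UMIs and 1.03 (0.31 to 1.76). Tgfbr1, a TGF-beta receptor chain, had 8 and 43 UMIs and -1.44 (-2.74 to -0.33). Ifnar2, a chain of the type I interferon receptor, had 17 and 51 UMIs and -0.60 (-1.48 to 0.22). Without the 2 Siglech nuclei Tgfbr1 had -1.09 (-2.42 to 0.07), an interval that held no difference, and Ifngr1 0.91 (0.19 to 1.63). Of 6 measured costimulatory and checkpoint genes 3 lay above 0 and 3 below, with a median of -0.04. Past 1.5 times, 1 was higher (Cd48, 0.64) and 2 were lower. The lowest was Cd83, a maturation marker, with 5 UMIs in 4 cKO-labelled nuclei and 48 UMIs in 13 control nuclei, a ratio of -2.27 (-3.96 to -0.95). Of its 48 control UMIs 20 lay in 1 nucleus. The mature-like cluster, of 1 cKO-labelled and 3 control nuclei, held 25 UMIs of Cd83.

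**Figure D4:**
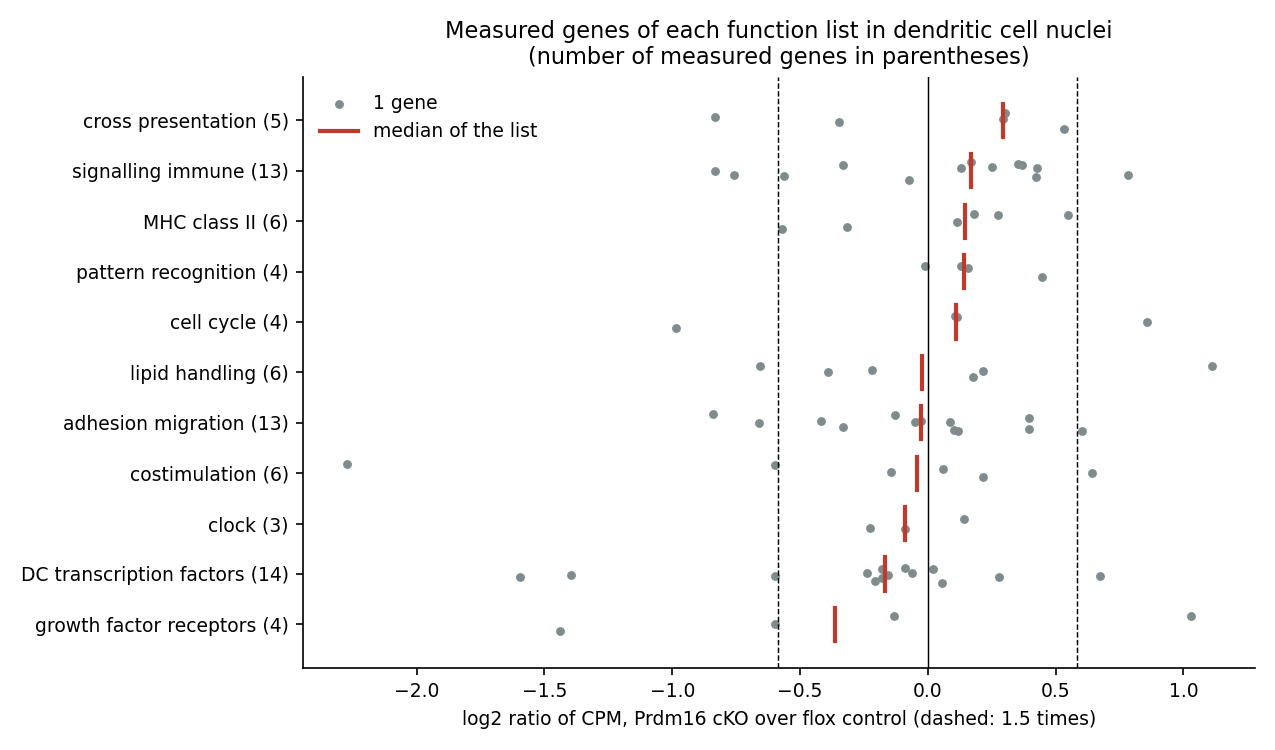
Log2 ratio of the cKO-labelled over the control members for each measured gene (dots) of the 11 function lists with 3 or more measured genes, with the list median (bar). Medians lie between -0.36 for growth factor receptors and 0.29 for cross-presentation genes, and the dots spread to both sides of 0 in every list.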

How the data were processed

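The deposited files hold raw UMI counts per gene and barcode for 32285 genes, per the file headers; Cell Ranger 6.1.2 and mm10 are named in the submitters' processing notes, and neither the labels nor the headers give the gene annotation or say whether intronic or antisense reads were counted, so reads of a gene and an antisense partner cannot be told apart. Barcodes with at least 500 UMIs and under 5% mitochondrial UMIs were kept: 7869 of 8086 (70895490 UMIs deposited) in the cKO-labelled library and 11611 of 12060 (108987031 UMIs) in the control. The members, gene lists and comparisons were chosen with earlier results of these data known. Macrophage, B cell and T cell nuclei were found by like rules on their own genes, nuclei of the B cell class were kept out of the T cell class, and adipocyte nuclei were those highest in the adipocyte list.

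Counts were summed over nuclei of a kind and library and divided by the summed total (CPM), with exact Poisson intervals, exact conditional binomial intervals for ratios and Clopper-Pearson intervals for shares (Python 3.11.15, numpy 2.4.6, scipy 1.17.1, pandas 2.3.3). A count of 0 was taken to allow 3 UMIs. UMIs are not replicates, so intervals cover counting error only, and no p-value was computed. Genes between libraries were measured with at least 50 UMIs over all members and called at 1.5 times. The 12 higher and 12 lower genes named were those whose interval bound nearest to no difference lay farthest from it, the 25 markers those with the largest smaller ratio over other nuclei and at least 50 UMIs in each library, and listed genes were named for their role. After the data were seen, the filter of 50 CPM and the 2-fold rule between kinds, the clustering settings and the naming condition of 25% of nuclei were set. Members were clustered with Leiden at resolution 1 on 10 principal components of 1000 variable genes with 10 neighbours (scanpy 1.11.5, leidenalg 0.10.2, igraph 0.11.9). The automatic Scrublet threshold marked 0% of the cKO-labelled nuclei and 0.00861% of the control nuclei and so did not work; members were kept with doublets in, and an alternative removed the highest scores at 0.8% per 1000 nuclei, which took 1 cKO-labelled and 2 control members. The calculations were tested on simulated counts. Gene positions are from GENCODE vM21 on GRCm38.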

Additional observations from a re-analysis of the deposited data

How the results depend on the processing

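Depth limits these results: the 63 nuclei come from 1 library per genotype, and 1 UMI is worth 8.20 CPM in the cKO-labelled and 4.13 CPM in the control members. No paired analysis was possible because each genotype has 1 library and the labels give no shared replicate number. Of the settings tried, 135 values behind the comparisons stayed within their bounds and 58 moved; of the values of named genes, 224 stayed, 47 moved and 4 reversed. The causes were not tested. Alternatives without Siglech nuclei, on Wdfy4 nuclei alone, without the naming condition or without the richest nucleus were chosen after seeing the data. The share of kept nuclei was 0.158 and 0.297% (cKO-labelled and control) with nuclei thinned to 2000 UMIs, 0.114 and 0.172% with 5 rule UMIs over 3 genes (9 and 20 nuclei), 0.191 and 0.121% with 0 macrophage UMIs (15 and 14 nuclei), and 2.82 and 2.42% of the 4 immune kinds. In the main setting 140 genes were higher and 218 lower, 8.07% and 12.6% of 1735 measured genes. The counts were 453 and 416 with nuclei thinned to 1000 UMIs and 302 and 383 under the stricter rule. They were 285 and 368 with an adipocyte profile subtracted and 329 and 302 with 0 macrophage UMIs. With 20 UMIs they were 540 and 717, and with 1 UMI in each library 2920 and 2299. Both of these last filters measured more genes, many with few UMIs, so their counts cannot be set against 140 and 218. List medians moved under the stricter rule to 0.037 for transcription factors, 0.44 for clock, 0.28 for adhesion, -0.47 for lipid handling and 0.52 for signalling genes. With 0 macrophage UMIs they were -0.040 for transcription factors, 1.01 for cell cycle, -0.20 for adhesion, 0.40 for lipid handling and -0.17 for signalling. With 20 UMIs they were -0.062 for cross-presentation, 0.63 for cell cycle, 0.10 for adhesion and 0.35 for lipid handling, and with 1 UMI -0.036, 0.99, 0.094 and 0.22, and 0.35 for signalling. Thinning gave 0.87 for clock, 0.15 for lipid handling and -0.017 for signalling, means per nucleus 0.30 for costimulation and -0.081 for signalling, subtraction -0.45 for clock, and Wdfy4 nuclei alone (21 and 28) 0.25 for adhesion, -0.25 for lipid handling and 0.39 for signalling. Fgf14 reversed to -1.31 under the stricter rule, Sipa1l3 to -0.72 with thinning, and Runx2 to 0.17 without Siglech nuclei and 1.90 on Wdfy4 nuclei alone. The mature-like cluster held 0% of both libraries at resolution 0.5 and, with the cDC2-like one, 0% after thinning. At resolution 1.5, 4 nuclei (1 and 3) with Eya4, Ccbe1 and Muc16 took the mesothelial name and 2 control nuclei the plasmacytoid name. With doublets removed, a cluster named cDC1-like held 33.3 and 30.6%, and the mature name went to 21 nuclei (25 and 41.7%) led by Ccbe1, Tmcc3 and Eya4, with Fscn1 the 1 gene of the mature list among its 10 leading genes. Without the naming condition a cluster of 32.0 and 34.2% would take the plasmacytoid name.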

Other observations

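Genes of the growth factors on which dendritic cells depend were read in the other kinds of nuclei. Flt3l, the ligand of FLT3, had 1 UMI in the cKO-labelled and 2 UMIs in the control dendritic cell nuclei. It stood at 51.6 CPM in cKO-labelled and 33.5 CPM in control T cell nuclei, at 25.1 and 17.4 CPM in macrophage nuclei, at 24.1 and 21.8 CPM in B cell nuclei and at 7.90 and 6.15 CPM in adipocyte nuclei.

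Nuclei that met the rule for dendritic genes but held 3 or more macrophage UMIs, 10 in the cKO-labelled library and 27 in the control, had a median of 14852 and 7542 UMIs, against 4454 and 4743.5 in the members. Their cDC2 list stood at 674 and 1649 CPM, Wdfy4 at 750 and 1775 CPM and Ndnf at 182 and 110 CPM, against 32.8 and 24.8 CPM of Ndnf in the members. Another 2 cKO-labelled and 3 control nuclei missed the mitochondrial limit alone, with cDC1 lists at 5106 and 4538 CPM.

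Dpp4, a peptidase known as CD26 that also marks interstitial progenitor cells of fat, had 72 UMIs in 22 cKO-labelled members (590 CPM) and 108 UMIs in 30 control members (446 CPM), against 103 and 105 CPM in macrophage nuclei. It was picked after its values were seen. Sv2b, a synaptic vesicle protein gene picked in the same way, stood at 107 CPM in the cKO-labelled and 174 CPM in the control members, against 10.2 and 9.03 CPM in macrophage nuclei and 1.61 and 1.15 CPM in B cell nuclei.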
